A study of Cavia porcellus with 9 samples.

Results

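The retinal pigment epithelium is a pigmented single layer of cells that lies against the photoreceptor outer segments and is the main site of Rpe65, the isomerase of the visual cycle. Here the 9 retina libraries of a guinea pig light-rearing study were ranked by Rpe65, whatever light the animals had received, and the 3 libraries with the most Rpe65 were set against the 3 with the least. The groups were therefore chosen by a measured value. They are called high Rpe65 and low Rpe65 below, and 6 of the 9 libraries enter the comparison. How much epithelium came away with each retina was not recorded in the labels, and in bulk tissue fewer epithelial cells and less RNA per cell cannot be told apart.

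The libraries come from retinas of male Dunkin-Hartley guinea pigs (Cavia porcellus), labelled as tri-colour, obtained at 2 weeks of age and sampled at 12 weeks after 8 weeks of green, blue or white light in a cycle with 12 hours of light, with 3 libraries per light. High Rpe65 holds white 2 (animal 6), green 2 (animal 11) and blue 3 (animal 32), thus 1 library of each light. Low Rpe65 holds green 3 (animal 16), green 1 (animal 11) and white 3 (animal R-23), with no blue library. Blue 2 (animal 32), blue 1 (animal 2R-23) and white 1 (animal 6) lie between and entered neither group. Animal 11 has 1 library in each group, both titled with the same eye code (od), and whether they come from a single eye is not stated. The labels R-23 and 2R-23 were taken as different animals, which the labels do not settle. In addition, the titles of green 1 and white 3, both low, carry the ending "-B", which the labels do not explain. The libraries hold 62155041 to 74979806 counts and 15871 to 16145 genes with a count, and levels are counts per unit of library total (CPM) scaled by TMM factors, a correction for differences in composition between libraries. A gene without a count in a low library could still stand at 0.0402 to 0.0483 CPM there (3 counts, counting error only). Each mean ± SD covers 3 libraries.

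The epithelium absorbs stray light, exchanges nutrients and ions between the choroid and the retina, engulfs shed outer segment tips, and regenerates the chromophore of the visual pigments. In that visual cycle Lrat makes the retinyl esters that Rpe65 isomerises, and Rdh5 oxidises the product. Ttr encodes transthyretin, which carries thyroxine and the retinol-binding protein, and Pmel encodes the fibrils on which melanin is laid down.

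Rpe65 varied widely, also within the groups. As a share of each library's total it stood at 141.5, 99.64 and 98.26 CPM in white 2, green 2 and blue 3, at 62.71, 61.98 and 45.64 CPM in blue 2, blue 1 and white 1, and at 15.11, 15.01 and 7.647 CPM in white 3, green 1 and green 3. The lowest library taken as high stood at 98.26 CPM and the next one left out at 62.71 CPM; the highest library taken as low stood at 15.11 CPM and the next one left out at 45.64 CPM. These values made the groups, and Rpe65 is left out of what follows.

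The 4 other markers of the epithelium separated the same libraries. Ttr was 90.8, 63.2 and 101 CPM in white 2, green 2 and blue 3 and 18.1, 13.1 and 5.32 CPM in white 3, green 1 and green 3. Pmel was 71.4, 93.1 and 95.0 CPM in the high and 22.2, 8.14 and 3.89 CPM in the low libraries, in the same order. The lowest high library of each gene lay far above the highest low library. Rdh5 stood at 53.0, 50.1 and 56.5 CPM against 14.3, 8.91 and 7.76 CPM. Lrat stood at 13.0, 13.0 and 11.2 CPM against 1.99, 2.83 and 0.813 CPM. Summed, the 4 markers held 237 ± 23.7 CPM in high and 35.8 ± 19.6 CPM in low Rpe65, a ratio of 6.62. Ranking the libraries by these 4 genes in place of Rpe65 gave the same 3 high and the same 3 low libraries. No p is printed for the markers, because they are genes of the same cells as the gene that chose the groups; where they appear among called genes below, the call is a description.

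**Figure D1:**
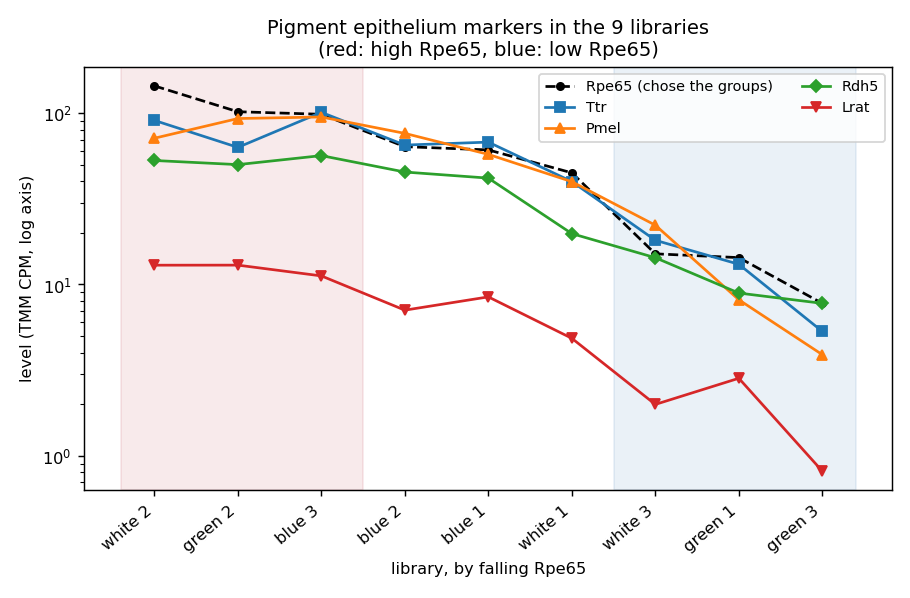
Level of Rpe65 (dashed) and of Ttr, Pmel, Rdh5 and Lrat in TMM CPM on a log axis, with 1 point per library and the libraries ordered by falling Rpe65; red shading marks the 3 high and blue shading the 3 low Rpe65 libraries. All 4 markers are lower in each low library than in each high library, and white 1 is the lowest of the 3 unshaded libraries between the groups.

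The sum of the 4 markers differed within each light. It ran from 17.8 to 219 CPM over the 3 green libraries, from 56.6 to 228 CPM over the 3 white libraries and from 176 to 264 CPM over the 3 blue libraries. The green and white ranges overlap, and the lowest blue library lies above 2 of the 3 green and 2 of the 3 white libraries. Within animal 11, whose 2 libraries are both green, the sum was 219 CPM in green 2 and 33.0 CPM in green 1. In animal 6 it was 228 CPM in white 2 and 104 CPM in white 1, and in animal 32 it was 264 CPM in blue 3 and 194 CPM in blue 2.

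Over all genes, the libraries of the 2 groups were nearly alike. Across genes, which are not independent replicates, Pearson's r between the log2 levels of pairs of libraries averaged 0.9919 within high, 0.9919 within low and 0.9899 between the groups. Of 15253 genes tested with edgeR's quasi-likelihood test, 56 (0.367%) were higher and 2 (0.0131%) lower in high Rpe65 at a Benjamini-Hochberg adjusted p under 0.05. At an unadjusted p under 0.05 the counts were 404 higher and 756 lower, and the median log2 difference of all genes was 0.001. Since Rpe65 formed the groups, these calls say only how closely a gene's level went with Rpe65 over these 6 libraries, not that a treatment changed it. The count of 56 moved with single libraries. It was 23 without green 1, 36 without white 3, 37 without green 2, and 25 without both libraries of animal 11.

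The 56 genes had log2 differences from 0.51 to 3.24 with a median of 1.91. For 27 of them the difference was 2 or more, for 12 it was between 1 and 2, and for 17 it was under 1. Without regard to a test, 109 genes (0.715% of those tested) were at least 2-fold higher with no overlap between the groups, 39 of them among the 56, and 90 (0.59%) were at least 2-fold lower without overlap. Mean levels were under 1 CPM for 47 of the 109 and for 73 of the 90. At any size, 945 genes (6.2%) had every high library above every low one and 909 (5.96%) the reverse.

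**Figure D2:**
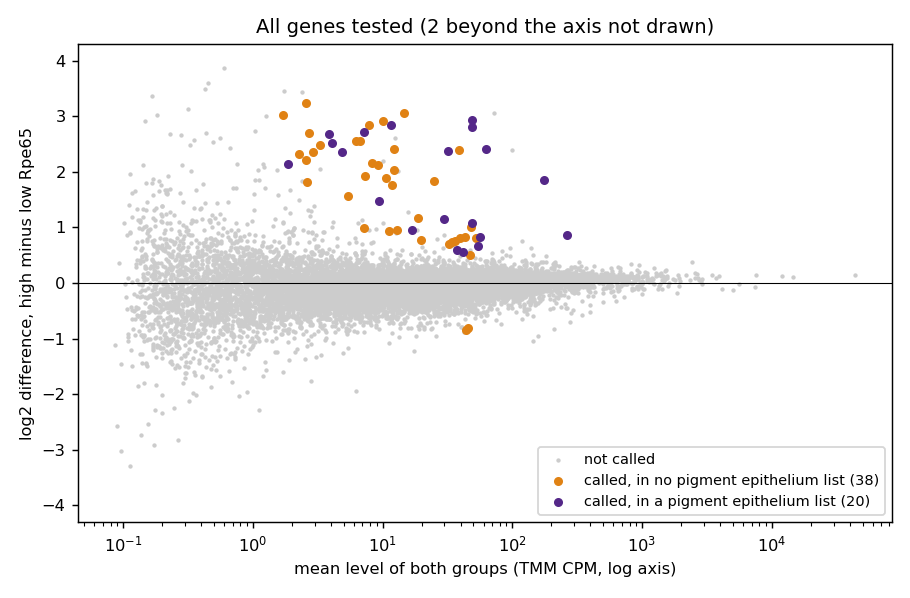
Log2 difference, high minus low Rpe65, against the mean level of both groups in TMM CPM (log axis), 1 point per gene tested, with called genes coloured by whether a pigment epithelium list holds them. The called genes lie almost all above 0, and the 2 below it are unnamed loci; 2 genes beyond a log2 difference of 4.3 are not drawn.

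Genes known for the epithelium were followed in 7 lists with 90 members besides Rpe65. Of these, 87 were in the table and 80 were tested. Sox9, Lcn2 and Cst3 were not matched, and 7 genes, among them Rab38, Tfec, Slc6a20, Cldn10, Cd36 and Serpinf1, were too low to test, at no more than 0.462 CPM in any library. Of the 80, 18 (22.5%) were called higher and 0 lower, against 0.367% and 0.0131% of all genes tested. Without overlap 31 of the 80 were higher and 2 lower, against 6.2% and 5.96% of all genes tested. Most members of the lists did not separate the groups, however: the log2 difference was 2 or more for 11, between 1 and 2 for 7, and between −0.5 and 0.5 for 46, with a median of 0.12. The lists were chosen with earlier results on these libraries known, and they share their cells with Rpe65, so their counts are a description. Members named beyond the most abundant of each list were picked after their values were seen.

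The visual cycle and retinoid list had the most called members, though not the most without overlap, where 3 other lists reached its 6. Of its 8 tested genes, 5 were called higher and 6 were higher without overlap, against 0.367% and 6.2% of all genes tested. The median log2 difference was 1.0. The called genes include Ttr, Lrat, Rdh5 and Stra6. Stra6, the membrane receptor for retinol-binding protein, was tightly grouped in the high libraries, at 44.1, 44.9 and 45.5 CPM. It stood at 32.5, 30.2 and 26.3 CPM in the low libraries. Its call was lost with library totals only, with a minimum of 5 CPM and with light as a term. Bco1, which cleaves beta-carotene, was 16.6 ± 3.84 against 8.89 ± 0.99 CPM without overlap. Rbp4, the serum retinol carrier, overlapped at 46.1 ± 13.5 CPM in high and 67.1 ± 23.2 CPM in low Rpe65, and Bco2 overlapped too.

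Visual cycle genes that Müller glia or photoreceptors also express differed less. Of 10, 2 were called higher, against 0.367% of all genes tested, and the median log2 difference was 0.20. Rgr, an opsin of the epithelium and Müller glia, was 338 ± 28.4 against 186 ± 14.0 CPM, and Rdh10, a retinol dehydrogenase, was 71.8 ± 7.83 against 40.5 ± 3.65 CPM. Rlbp1, which encodes the retinaldehyde-binding protein of both cell types, was 370 ± 39.9 against 284 ± 14.9 CPM, without overlap but not called. The photoreceptor enzymes Rdh8 and Rdh12 had log2 differences of −0.01 and −0.02.

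Melanin and melanosome genes were uneven. Of 13 tested, 2 were called higher, against 0.367% of all genes tested. They were Pmel and the melanosomal exchanger Slc24a5 (49.8 ± 3.75 against 33.8 ± 0.93 CPM). Oca2 (1.14 ± 0.23 against 0.34 ± 0.11 CPM) and Mlana (3.34 ± 0.29 against 1.18 ± 0.32 CPM) did not overlap and were not called, with log2 differences of 1.71 and 1.5. The enzymes that make melanin were low in every library. Tyr, the rate-limiting enzyme, ranged from 0.187 to 0.708 CPM over the 9 libraries, Tyrp1 from 0 to 1.17 CPM and Dct from 0 to 0.751 CPM, and for each of them the groups overlapped. Slc45a2, a melanosome transporter, lay the other way without overlap, at 32.0 ± 3.86 in high and 39.0 ± 3.61 CPM in low Rpe65.

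Ion channels and transporters of the epithelium gave 4 genes called higher among 13, against 0.367% of all genes tested. Slc16a8 encodes the lactate transporter of the basolateral membrane. It was 23.6, 18.4 and 19.2 CPM in white 2, green 2 and blue 3 and 4.37, 3.21 and 0.970 CPM in white 3, green 1 and green 3. Best1, the bestrophin chloride channel, was 37.6, 43.2 and 41.9 CPM in high and 21.2, 16.2 and 18.2 CPM in low libraries, a log2 difference of 1.15 ± 0.12 (SE). The other called members were the zinc transporter Slc39a12 (6.70 ± 1.78 against 1.05 ± 0.59 CPM) and the apical potassium channel Kcnj13 (3.03 ± 1.18 against 0.684 ± 0.202 CPM). Slc2a1, the glucose transporter, and Slc16a3, a lactate transporter, overlapped, with log2 differences of −0.25 and −0.36. The median of the list was −0.09, since its other members lay on both sides of 0.

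Secreted and matrix proteins gave 3 genes called higher among 16, against 0.367% of all genes tested. Enpp2, the enzyme autotaxin, was 84.7, 119 and 113 CPM in high and 27.0, 18.3 and 14.5 CPM in low libraries. Ptgds, prostaglandin D synthase, was 291, 268 and 266 CPM in high and 99.5, 59.1 and 69.5 CPM in low libraries, with the groups far apart. Sulf1, a heparan sulfate sulfatase, was 22.3 ± 2.06 against 11.5 ± 1.43 CPM. Timp3, the metalloproteinase inhibitor of Bruch's membrane, was 38.6 ± 5.12 against 21.2 ± 5.17 CPM without overlap and not called. Vegfa, Efemp1 and Igfbp5 overlapped, each with a negative log2 difference (−0.32, −0.45 and −0.70).

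Junction and keratin genes gave 4 called higher of 11, against 0.367% of all genes tested. Cldn1, a tight junction claudin, was 7.51, 6.05 and 7.37 CPM in high and 1.69, 1.32 and 0.656 CPM in low libraries, and Cdh3, the placental cadherin, was 8.20 ± 0.66 against 1.60 ± 0.94 CPM. Krt18 was 13.8 ± 1.83 against 4.94 ± 1.01 CPM. Its keratin partner Krt8 overlapped at 71.4 ± 4.58 and 74.4 ± 5.59 CPM. The scaffold Slc9a3r1 was the fourth called gene, at 66.5 ± 4.90 against 42.1 ± 4.81 CPM.

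Transcription factors and phagocytosis genes gave no called member. With 0.367% of all genes tested called higher, that is the usual outcome for lists of this size. Among 6 factors, Mitf, the regulator of pigment cells, was 2.57 ± 0.05 against 2.15 ± 0.16 CPM, while Otx2, Lhx2 and Pax6, which retinal neurons express too, had log2 differences of 0.03, 0.01 and 0.00. Among 13 phagocytosis and lysosome genes the median log2 difference was 0.07. The engulfment receptor Mertk was 12.8 ± 0.92 against 13.9 ± 2.26 CPM. The lysosomal protease Ctsd, at 628 ± 9.62 against 518 ± 61.8 CPM, was the 1 member that was higher without overlap, and Lgals3, under 1.1 CPM in every library, the 1 that was lower. The 7 lists hold 77 tested genes that are in no retinal list. Their sum was 6169 ± 186 CPM in high and 5601 ± 135 CPM in low Rpe65, a ratio of 1.10. Genes of high level weigh most in it, and the highest, Slc2a1 (mean 693 CPM), overlapped between the groups. The ratio is therefore no measure of the amount of epithelium, and the 4 markers alone gave 6.62.

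**Figure D3:**
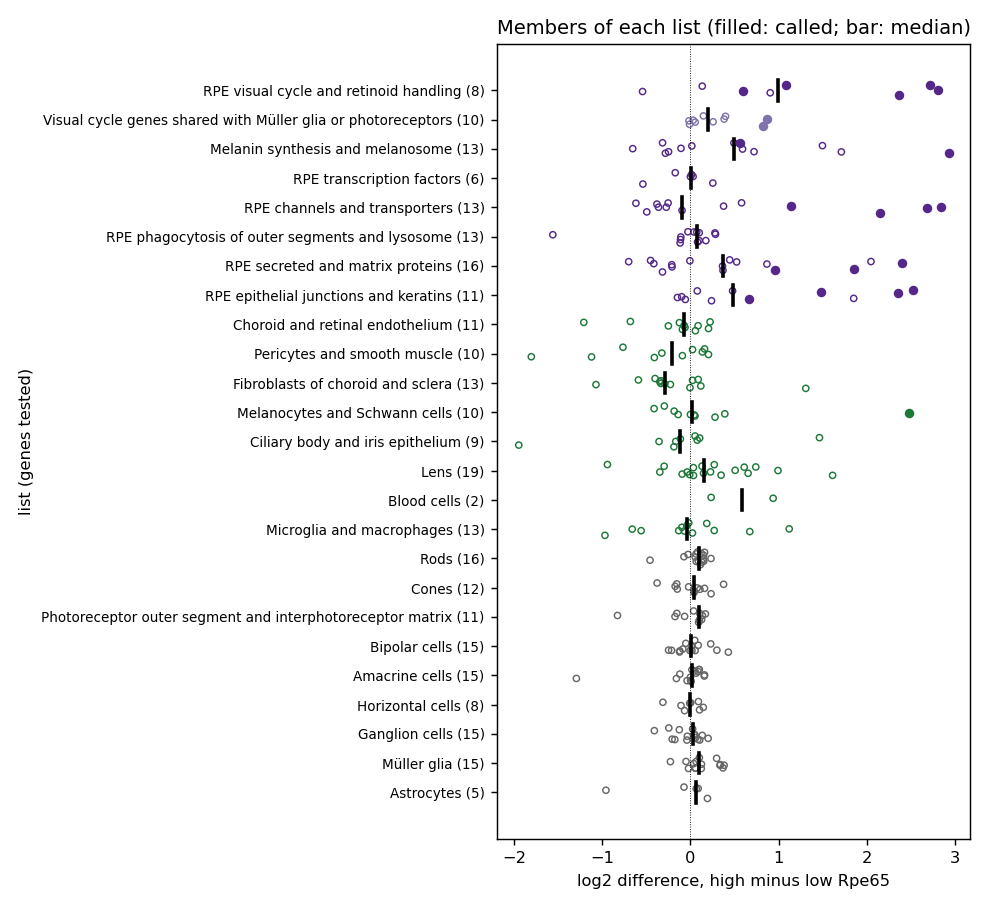
Log2 difference, high minus low Rpe65, of each tested member of the pigment epithelium lists (purple), lists for other cells that a dissected retina could carry (green) and retinal cell lists (grey), with the number tested in brackets, filled points for called genes and black bars for medians. The purple lists run from −1.56 to 2.93 and the green and grey lists from −1.94 to 2.48, with Sox10 as the 1 filled point of the latter.

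Markers of other cells that could come with the retina were followed in 8 lists. Of their 87 tested genes, 1 (1.15%) was called higher, Sox10, against 0.367% of all genes tested. Without overlap 5 were higher and 7 lower, against 6.2% and 5.96% of all genes tested. The endothelial list had 0 of 11 called, a median log2 difference of −0.07 and summed levels of 389.8 to 547.7 CPM in high and 407.5 to 482.6 CPM in low libraries. Its members of highest level were Flt1, which overlapped at 279 ± 83.7 against 240 ± 51.5 CPM, and Kdr. Kdr, at 127 ± 2.6 against 151 ± 13.2 CPM, was the 1 tested member of the list without overlap and was not called. Sox17 was at 0 in all 9 libraries, and Cdh5, the endothelial cadherin, stayed at or under 0.225 CPM. The list of choroidal and scleral fibroblasts had 0 of 13 called, a median of −0.29 and summed levels of 106.3 to 131.7 CPM in high and 149.6 to 158 CPM in low libraries. Those ranges do not overlap, with less of the fibroblast markers where Rpe65 was high. Its Fbln1, a matrix protein, was 7.20 ± 2.33 in high and 15.2 ± 4.35 CPM in low Rpe65, and Fbln2 lay the other way, at 3.77 ± 0.62 against 1.53 ± 0.22 CPM; neither was called. Lens genes summed to 124.9 to 158.8 CPM in high and 88.43 to 151.9 CPM in low libraries, and microglia and macrophage genes to 54.5 to 64.14 and 47.05 to 63.23 CPM, and both pairs of ranges overlap. The part of these cells in the calls was not tested.

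Sox10 marks melanocytes and Schwann cells in textbooks. It was 5.36, 5.30 and 5.96 CPM in white 2, green 2 and blue 3 and 1.27, 0.744 and 0.970 CPM in white 3, green 1 and green 3, a log2 difference of 2.48 ± 0.25 (edgeR adjusted p = 0.00122). The other 9 tested markers of its list were not called. The melanocyte receptors Kit (25.7 ± 2.10 against 24.8 ± 2.66 CPM) and Ednrb (13.1 ± 2.11 against 12.7 ± 1.99 CPM) each overlapped.

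Among retinal cell markers, 0 of 111 tested genes in 9 lists were called in edgeR's test. Of all genes tested, 0.367% were called higher and 0.0131% lower, so 0 lies near that share and is no result about these markers. Their list medians ran from −0.002 in horizontal cells to 0.102 in rods and in Müller glia. The 16 rod markers summed to 102400 to 104900 CPM in high and 82200 to 104200 CPM in low libraries. These ranges overlap. Clu, a Müller glia and epithelium gene, was 2730 ± 201 against 2110 ± 249 CPM and did not overlap. The neuropeptide gene Vip, of an amacrine cell class, had the most negative difference of these lists, at 1.56, 2.34 and 1.97 CPM in high and 3.49, 5.41 and 5.46 CPM in low libraries. The groups did not overlap, and the call was missed (edgeR adjusted p = 0.0784).

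Beyond all lists, 35 of the 56 genes called higher remained, 2 of them numbered loci. Clic6, a chloride channel family member, was 23.4, 16.8 and 13.6 CPM in white 2, green 2 and blue 3 and 2.40, 3.22 and 1.48 CPM in white 3, green 1 and green 3, a log2 difference of 2.92 ± 0.29 (edgeR adjusted p = 0.00122). Ca12, a membrane carbonic anhydrase, was 24.6, 26.4 and 27.2 CPM in high and 4.42, 3.44 and 1.54 CPM in low libraries. Slc22a8, an organic anion transporter, was 20.7 ± 4.48 against 3.91 ± 1.73 CPM, and Flvcr2, a choline and heme transporter family member, had the largest log2 difference among called genes at 3.24 ± 0.55. Flvcr2 was also the 1 called gene with fewer than 10 counts in a low library, at 7 counts in green 3. The osmosensitive channel Trpv4 was 4.20 ± 0.71 against 0.898 ± 0.467 CPM.

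Bmp6, a bone morphogenetic protein, had the smallest adjusted p of all genes (edgeR, 0.000758). Its levels were 16.9, 13.0 and 14.9 CPM in high and 3.52, 3.42 and 3.39 CPM in low libraries, so that the 3 low libraries were almost equal. Dhh, desert hedgehog, was 12.8, 11.5 and 10.3 CPM in high and 1.96, 2.41 and 1.51 CPM in low libraries. Egf, the epidermal growth factor precursor, was 64.6 ± 16.2 against 12.3 ± 5.13 CPM, and Wls, which escorts Wnt proteins to the cell surface, was 13.7 ± 1.33 against 1.92 ± 1.01 CPM. Fgfr2, a growth factor receptor, was 4.68 ± 0.74 against 0.723 ± 0.154 CPM, and Adra2c, an adrenergic receptor, was 13.6 ± 0.94 against 3.03 ± 0.97 CPM. Tm4sf1, a tetraspanin-like membrane protein, was 3.04 ± 0.46 against 0.374 ± 0.177 CPM.

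Myrf, a membrane-bound transcription factor, was 10.3, 10.2 and 11.8 CPM in high and 2.44, 1.37 and 1.67 CPM in low libraries, with a log2 difference of 2.56 ± 0.22 (edgeR adjusted p = 0.000797). Hnf4a, a nuclear receptor, was 3.79 ± 0.57 against 0.762 ± 0.455 CPM, and the RNA-binding protein gene Rbm47 was 4.89 ± 1.76 against 0.949 ± 0.287 CPM.

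Several called genes are known from inherited changes in eye size or in the epithelium, and these were picked after their values were seen. Variants of Myrf, Tmem98 and Mfrp occur in human nanophthalmos, in which the eye is short. Tmem98 was 56.7, 67.5 and 67.4 CPM in white 2, green 2 and blue 3 and 33.2, 31.1 and 31.3 CPM in white 3, green 1 and green 3, a log2 difference of 1.0 ± 0.10. Mfrp was 17.0 ± 2.63 against 8.81 ± 1.22 CPM. C1qtnf5, which shares a transcript with Mfrp in other mammals, so that their reads may not be told apart, was 14.8 ± 1.54 against 7.75 ± 1.37 CPM. Both Mfrp and C1qtnf5 lost their call in several alternative settings. Among these were library totals only and the fits without green 1, green 2, blue 3 or white 3.

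Fgfr3, a growth factor receptor, was 26.0 ± 4.31 against 11.6 ± 1.79 CPM, and Itga3, an integrin subunit, was 55.0 ± 1.14 against 38.7 ± 1.66 CPM, the smallest called log2 difference at 0.51. Both were named for their place in the range of sizes after their values were seen.

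The 2 genes called lower have no gene name. LOC100726528 was 32.4, 33.2 and 33.5 CPM in white 2, green 2 and blue 3 and 56.9, 66.3 and 49.8 CPM in white 3, green 1 and green 3 (log2 difference −0.80, edgeR adjusted p = 0.0116). LOC106026085 was 31.5 ± 6.19 against 56.6 ± 3.15 CPM (log2 difference −0.84, edgeR adjusted p = 0.0311). Neither was called when light was a term in the fit, nor without green 1, green 2, blue 3 or white 3. Named genes at the negative end were not called. Among them were the collagen-modifying enzymes Plod2 (12.4 ± 1.02 against 24.0 ± 9.14 CPM) and P4ha1 (29.5 ± 6.11 against 50.7 ± 10.6 CPM), the collagen Col16a1 (3.94 ± 0.32 against 7.07 ± 0.81 CPM), and Hif3a, of the hypoxia-inducible factor family (8.50 ± 0.77 against 14.0 ± 2.91 CPM). In both enzymes the highest low library was green 1. The others taken by the rule were Rida (log2 difference −0.72), Zfhx2 (−0.65), Fto (−0.61), Ing5 (−0.45), Ccnl2 (−0.4) and Tex45. Tex45 stayed at or under 0.342 CPM in every library.

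**Figure D4:**
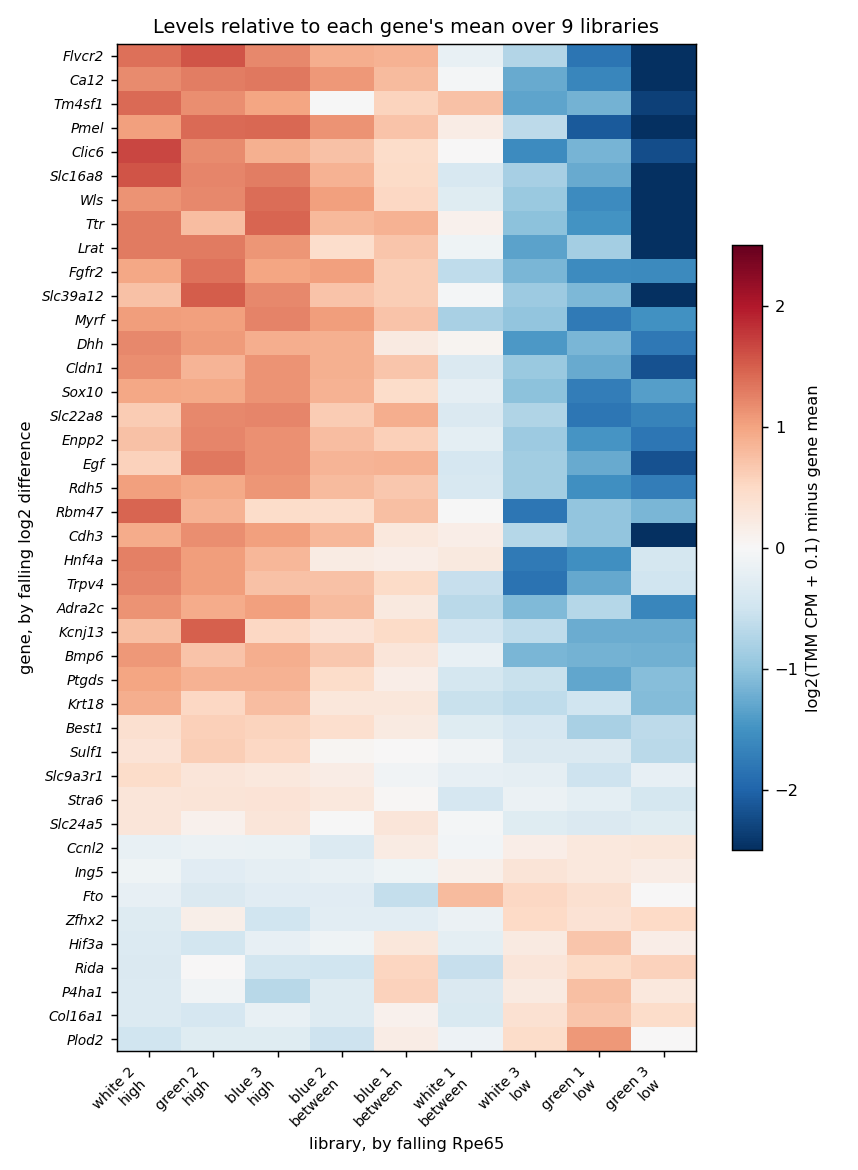
Levels of 42 genes, as log2(TMM CPM + 0.1) minus the gene's mean over 9 libraries, with genes in rows by falling log2 difference and libraries in columns by falling Rpe65; red is above and blue below the gene's own mean. The upper 33 rows, all called higher, pass from red to blue across the columns, with white 1 near the middle. The lower 9 rows, picked for small unadjusted edgeR p with a negative difference, show a weaker reverse pattern. In the high and low columns both patterns follow from how the genes were picked.

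The 3 libraries between the groups did not enter the fit, although Rpe65 had placed them there. For 46 of the 56 genes called higher (82.1%) all 3 of them lay above every low library, against 5.32% of all genes tested. That count is a description, since the genes were called for their low values in the low libraries. The order among the 3 was not used by the calls. White 1, which had the least Rpe65 of them, was the lowest for 51 of the 56 genes (91.1%), against 33.7% of all genes tested, and for 30 of the 35 called genes in no list (85.7%). White 1 is also the only white library of the 3, so its light cannot be told apart from its Rpe65 here. It shares animal 6 with white 2, a high library, and the 56 genes are not independent replicates of this order.

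Pairs of libraries with the same animal number gave the difference within an animal and a light, but they are no independent check of the calls. The library with more Rpe65 is a high one in every pair, and in animal 11 the other is a low one. As a description, 53 of the 56 genes (94.6%) were higher in all 3 pairs in the library with more Rpe65, against 13.2% of all genes tested. The median log2 difference over the 56 genes was 1.93 in animal 11, 1.01 in animal 6 and 0.27 in animal 32. The pairs' Rpe65 levels lay apart in the same order, at 102 and 14.4 CPM in animal 11, 144 and 44.9 CPM in animal 6, and 98.6 and 63.8 CPM in animal 32. Fgfr2, Prdm16 and C1qtnf5 were the 3 genes that were not higher in the animal 32 pair, with log2 differences of −0.04, −0.52 and −0.06.

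**Figure D5:**
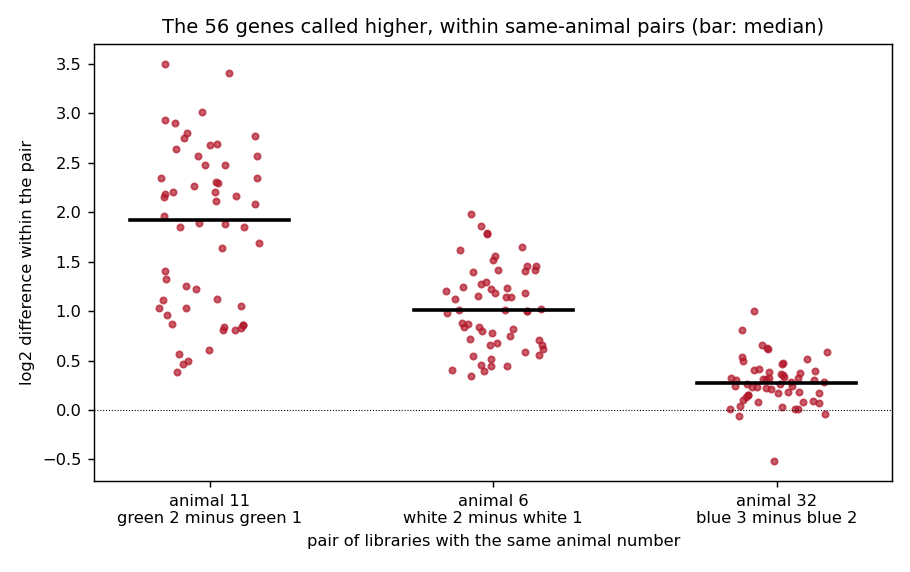
Log2 difference within each pair of libraries that carry the same animal number, the library with more Rpe65 minus the other, 1 point per gene called higher (56 genes), with black bars for medians. The medians are 1.93, 1.01 and 0.27, and all points of animals 11 and 6 lie above 0.

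Over all 9 libraries the genes most like Rpe65 in log2 level, among those with a mean of 5 CPM or more, were Clic6, Dhh, Lrat, Ca12 and Bmp6. Pearson's r was 0.993, 0.983, 0.978, 0.977 and 0.974, and Spearman's rank correlation 0.983, 0.983, 0.95, 0.933 and 0.983, in that order. Without green 3 and green 1, the 2 libraries farthest from the median of Rpe65, r over 7 libraries was 0.992, 0.969, 0.982, 0.948 and 0.976. These genes were selected on the correlation itself, and libraries with an animal number in common are not independent, so the values are given as a description with no p.

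The light of the libraries and the "-B" titles differ between the groups. With light as a term in the fit of the 6 libraries, 46 genes were higher, 43 of them among the 56. Without green 1 and white 3, the libraries titled "-B", green 3 is the only low library, so no count is given. With log2 Rpe65 as a continuous term and the animal number as a block over all 9 libraries, a fit with 2 residual degrees of freedom added after seeing the data, 67 genes went up and 27 went down with Rpe65, 48 of the former among the 56. The fit without the "-B" libraries is set aside here for the same reason. Genes tested and still called in every other alternative run were Clic6, Myrf, Dhh, Sox10, Enpp2, Rdh5, Adra2c, Bmp6, Ptgds, Best1, LOC100714792, Fam107a, Prkcq, Tmem98 and Rgr. Krt18 lost its call in the fit with the animal block alone (edgeR adjusted p = 0.0527). Tm4sf1, Rdh10, Prdm16, Stra6, Slc24a5 and Itga3 were not called there either. Single libraries decided others of the named calls. Of the 6 libraries, green 1 alone decided Slc16a8, Wls, Cldn1, Egf and Ttr, which were not called without it. Rbm47 and Fgfr3 lost theirs without green 1 or without white 3, and Pmel and Flvcr2 without green 1, green 2 or blue 3. Rdh10 was not called without blue 3 or without white 3. Slc39a12, Sulf1, Cdh3 and Mfrp were not called without green 1, green 2, blue 3 or white 3, and Kcnj13 not without green 1, green 2, green 3 or white 3. Trpv4 and Hnf4a kept their call only without green 3. So did C1qtnf5, while Stra6, Slc24a5, Slc9a3r1 and Itga3 lost theirs in all 6 of these fits.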

How the data were processed

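The authors deposited whole-number counts for 19962 genes in 9 libraries, per the file headers. Aligner, counter, strand setting and build were not given in the sources used here. Of the values from 1 to 20, 44.4% are divisible by 4, so a count may not be a single fragment. Each library was assigned its light from the labels. Rpe65 CPM (count over column total) ranked the libraries. Counts of the 3 highest and 3 lowest were fitted in edgeR 4.0.16 (R 4.3.3): filterByExpr (minimum count 10, minimum total 15), TMM, quasi-likelihood F test, adjusted over 15253 genes; the common biological coefficient of variation was 16.98%. Alternatives used DESeq2 1.42.0 and limma 3.58.1. The script was tested on simulated data. Libraries share animal numbers, so p-values measure the spread between libraries. The members, lists and settings were chosen with earlier results of these data known. Genes were named by rule: the markers, the members of highest level in each list, and called members first in the other lists. In no list, the rule took the 15 most positive differences among called genes with a name and without overlap. No gene with a name was called lower, so the 10 on that side were those of smallest unadjusted edgeR p. Every other gene named was picked after its values were seen. Symbols are as deposited. Results for some genes are not reported here.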

Additional observations from a re-analysis of the deposited data

How the results depend on the processing

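Against 56 genes higher and 2 lower in high Rpe65, the counts were 37 higher with library totals only, 104 and 48 with DESeq2's Wald test, 4 lower with limma-voom, 5 lower with light as a term, and 4 lower with the 4 highest against the 4 lowest libraries. Without both libraries of animal 11, an alternative added after seeing the data, 25 were higher. Without the "-B" libraries green 3 is the only low library, and no count is given. Leaving out each library gave 23 (without green 1) to 53 (without white 2) higher and 1 to 7 lower, 148 to 172 genes at least 2-fold higher without overlap (109 with all 6) and 122 to 248 at least 2-fold lower (90 with all 6). With a minimum of 5 CPM these counts were 33 and 2. The ratio of the summed lists (1.10) was 6.62 with the 4 markers only and 1.145 without Slc2a1. None of the 58 called genes turned its direction in the 23 settings tried, of which the groups by the 4 markers hold the same 6 libraries. Over the 6 libraries the animal number could not be fitted as a term, for want of residual degrees of freedom. Over all 9, with log2 Rpe65 as a continuous term and the animal number as a block (added after seeing the data), 67 genes were higher and 27 lower. Library numbers are only names and pair no libraries. Low counts and 3 libraries per group limit genes under 1 CPM.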

Other observations

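The following genes were singled out after their values were seen. Among genes with a mean of 5 CPM or more, 9 were at least 2-fold higher in high Rpe65 without being called by edgeR, 7 of them with a gene name. Prss56, a serine protease whose variants occur in human nanophthalmos, was 192 CPM in green 2 and 179 CPM in blue 3 but 18.5 CPM in white 2, and 11.2 to 33.2 CPM in the other 6 libraries. Ecel1, an endopeptidase-like membrane protein, was also highest in green 2 (40.1 CPM) and blue 3 (17.4 CPM), with 5.65 CPM in white 2 and 4.58 to 6.999 CPM elsewhere. Neither gene followed Rpe65, which was highest in white 2. Paqr7, a membrane progestin receptor, was 424 CPM in green 2 and 24.7 to 36.9 CPM in the other 8 libraries, so its log2 difference of 2.40 rests on green 2.

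The transporters Slc6a13, which carries GABA, and Slc7a10, which carries small neutral amino acids, did follow the groups. Slc6a13 was 10.04, 7.40 and 10.9 CPM in white 2, green 2 and blue 3 and 5.45, 3.13 and 4.45 CPM in white 3, green 1 and green 3, without overlap (edgeR adjusted p = 0.0942). Slc7a10 was 8.73, 10.3 and 7.17 CPM against 4.44, 3.14 and 4.81 CPM in the same order (edgeR adjusted p = 0.0761).

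None of the 144 tested genes in 8 lists of cell state was called in edgeR's test, against 0.367% higher and 0.0131% lower of all genes tested. That lies near the share of all genes and is no result about these lists. Interferon and antigen presentation genes summed to 280.4 to 314.1 CPM in high and 244.5 to 263.4 CPM in low libraries, without overlap. Their Cd74, the invariant chain of antigen presentation, was 56.6 ± 1.88 against 37.5 ± 5.03 CPM (edgeR adjusted p = 0.0696). Cholesterol and lipid genes summed to 2379 to 2526 CPM against 2104 to 2347 CPM. The 54 ribosomal protein genes had a median log2 difference of 0.07, and their sums overlapped.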
